A study of Mus musculus with 18 samples.

Results

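Wild-type mouse embryonic stem cells were compared with wild-type E17.5 cerebral cortex across all expressed genes. The comparison took 4 of the 18 libraries of the series, the 2 labelled mESC_WT and the 2 labelled E17.5_WT, and the labels alone set the groups. The stem cell libraries came from R1, an established mouse embryonic stem cell line, with a wild-type genotype. Their growth is described only as standard, and the labels give no strain, sex, passage or feeder layer for the line. The cortex libraries came from wild-type male C57BL/6J mice at the developmental stage E17.5. Per the labels, homogenate was divided between DNA and RNA extraction, and 1 ug of total RNA per sample entered NEBNext Ultra libraries read on an Illumina HiSeq instrument. Both stem cell libraries share the genome of 1 line, and a cortex library mixes every cell type of the dissected tissue. The labels do not say whether the libraries of a group are separate cultures or animals. The p-values therefore measure only the spread between libraries of the same group, which may be technical. That spread was estimated over all 10 wild-type libraries, including those of later stages, and not from the 4 compared libraries alone. Culture against tissue, cell type, developmental stage and the origin of the genome all differ between the groups together and cannot be told apart.

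Embryonic stem cells are pluripotent cells of the early embryo kept dividing in culture, held in that state by a transcription factor circuit around Oct4 (encoded by Pou5f1), Nanog and Sox2. The cortex late in gestation holds radial glia, the progenitors that line the ventricle, the intermediate progenitors that come from them, and a large population of young excitatory neurons that have stopped dividing and are growing axons and first synapses. Inhibitory interneurons reach it by migration from the ventral forebrain, and blood vessels, blood, microglia and meninges are part of the dissected piece.

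The libraries held 23531045 and 27942055 counts (stem cells) and 32041849 and 25240199 counts (cortex). Levels are given as CPM, a gene's count relative to its library's total after TMM scaling, always in the order stem cells replicate 1 and 2, cortex replicate 1 and 2. Differences are log2 values, cortex minus stem cells, ± the standard error of the edgeR fit (n = 2 libraries per group). Of 19466 genes tested, 13230 (68.0%) had a Benjamini-Hochberg adjusted p under 0.05 in edgeR's quasi-likelihood test and are referred to as called. Of these, 6863 (35.3% of the genes tested) were higher in cortex and 6367 (32.7%) higher in stem cells. Past a 2-fold change tested as such, 5171 (26.6%) were higher in cortex and 4089 (21.0%) in stem cells. Counts of called genes in any list have to be read against these shares. The median difference of all genes tested was 0.06, and the median size of a called difference was 5.31-fold. More than 10-fold differences were 3174 in favour of cortex and 1626 in favour of stem cells, and 869 called genes had no count in stem cells against 385 with none in cortex. At the other end, 2490 genes (12.8%) had a 95% interval of the difference that stayed within 2-fold in either direction. The stem cell libraries were less alike than the cortex libraries: 16.7% of genes were more than 2-fold apart between the stem cell replicates and 9.84% between the cortex replicates. Mitochondrially encoded RNA took 1.68% and 5.9% of counts in stem cells and 1.82% and 2.89% in cortex. For a group without any count, 3 counts in the group as a whole were assumed, which makes the fold a minimum. With 1 to 3 counts, values or a ratio with its exact 95% interval are given. Both cover counting error only. In bulk RNA, fewer cells of a type and less RNA per cell cannot be told apart.

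All 28 core and naive pluripotency genes tested were called higher in stem cells, with a median log2 difference of -9.21. Pou5f1 (ENSMUSG00000024406.16, GRCm38 chromosome 17, 35506018 to 35510772) was at 1485 and 1201 CPM in stem cells and at 0.227 and 0 CPM in cortex (log2 difference -13.37 ± 0.70, adjusted p = 2.05e-06). Nanog was at 706 and 762 CPM against 0.142 and 0.17 (-12.17 ± 0.43), and Esrrb, an orphan nuclear receptor of the naive state, at 737 and 564 against 0.766 and 1.6 (-9.12 ± 0.48). The groups did not overlap for any of the 28 genes, which also held for 16174 (83.1%) of all genes tested. Zfp42, the gene for the stem cell marker Rex1 (chromosome 8, 43295063 to 43306980), reached 1386 and 1469 CPM and had no count in either cortex library, at least 30795-fold higher in stem cells. Fgf4, the fibroblast growth factor that stem cells secrete (at least 3642-fold), Dppa4 (at least 2975-fold) and Tcl1 (at least 1305-fold) also had no cortex count. Tdgf1, a Nodal co-receptor, had 1187 and 1441 CPM against 0 and 0.102, a ratio of 28417 (95% interval 9723 to 137801). Klf4 was 36.7-fold higher (334 and 163 CPM against 6.36 and 7.18). The smallest difference of the list belonged to Sox2, which neural progenitors also use, at 482 and 347 CPM in stem cells and 110 and 102 in cortex (-1.97 ± 0.23, adjusted p = 2.49e-05).

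**Figure D1:**
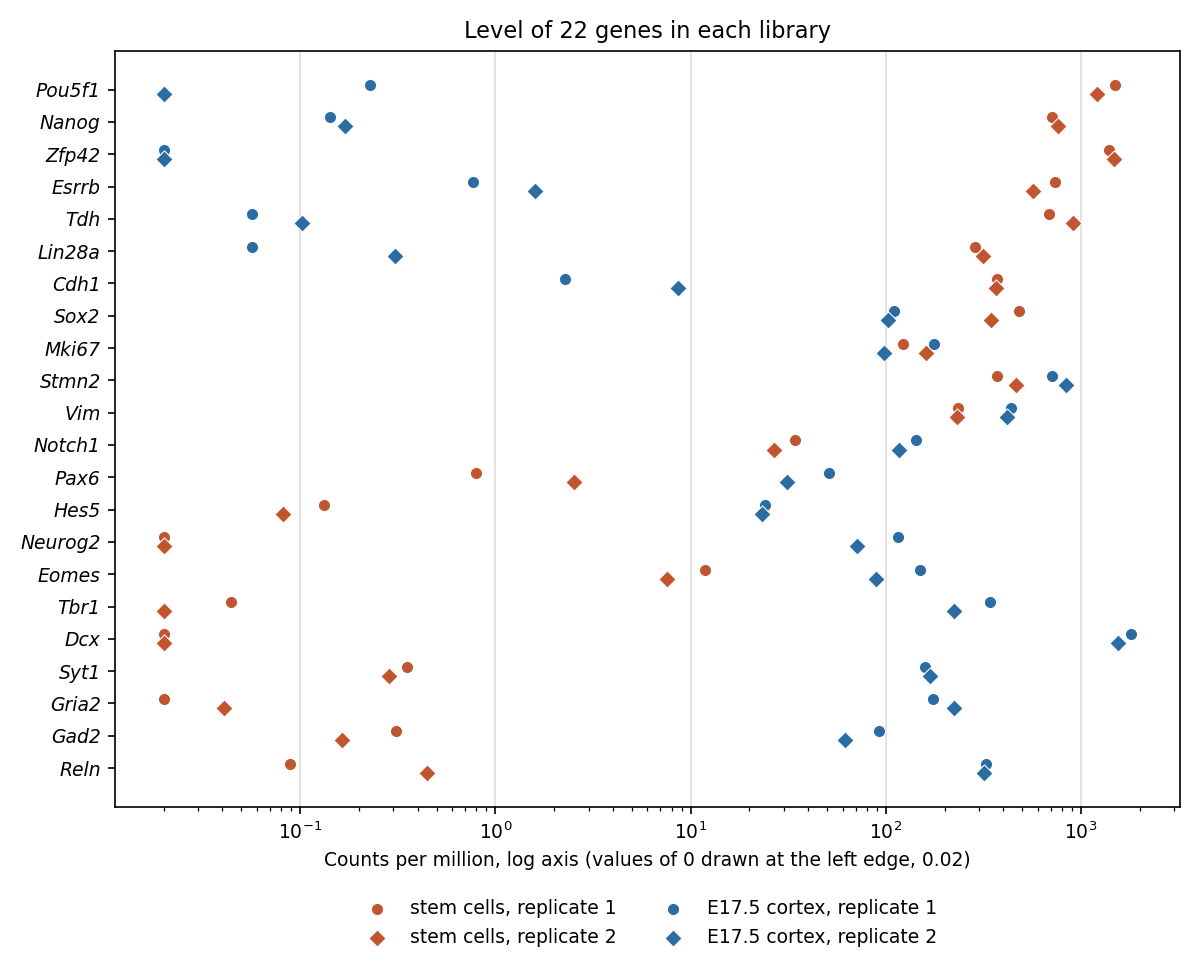
Level in CPM of 22 genes on a log axis, with 1 point for each of the 4 libraries (circles are replicate 1, diamonds replicate 2, orange stem cells, blue cortex, and a value of 0 is drawn at 0.02). Pou5f1, Nanog and Zfp42 sit at the right in both stem cell libraries and near or at 0 in cortex, Dcx sits the other way round, and Sox2, Mki67, Stmn2 and Vim lie close together in the middle.

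Markers of cells leaving the naive state differed by member. Their counts stand beside 35.3% higher in cortex and 32.7% higher in stem cells over all genes tested. Of 11 formative and primed epiblast genes, 5 were called higher in cortex and 4 in stem cells, and without E17.5_WT replicate 1 the count in cortex was 3. The de novo DNA methyltransferase gene Dnmt3b stood at 106 and 105 CPM in stem cells and 3.77 and 2.99 in cortex (-4.96 ± 0.34), and Nodal at 69.7 and 42.8 against 0.17 and 0.0681 (-8.79 ± 0.62). Pou3f1, used in both epiblast and cortical neurons, was 8.04-fold higher in cortex. Fgf5, the usual marker of the primed state, was at 0.0884 and 0.0407 CPM in stem cells and 0.681 and 0.306 in cortex, a call lost without E17.5_WT replicate 1 (2.19). Otx2 gave 32.3 and 23.2 CPM in stem cells against 6.9 and 12 in cortex and was not called (adjusted p = 0.232). The early lineage genes named here were low in stem cells, though above the level of 3 counts (0.133 and 0.122 CPM). The streak gene T was at 0.442 and 0.61 CPM and Mixl1 at 1.46 and 1.67. The endoderm genes were at 2.96 and 1.02 (Gata4), 3.45 and 0.325 (Gata6) and 0.619 and 0.325 (Sox17). Summed levels in stem cells were 15.8 and 12.7 CPM for the streak list and 119 and 107 CPM for the primitive endoderm list. Most of the endoderm sum came from members not named here. Gata6, not called with all libraries, was called higher in stem cells without mESC_WT replicate 2 (-2.99). T lost its call when any of the 4 libraries was left out (log2 difference -3.76 to -2.54), and Mixl1 lost it without mESC_WT replicate 2 (-3.84) or E17.5_WT replicate 1 (-2.90). Eomes, a gene of both the streak and cortical intermediate progenitors, was 12.3-fold higher in cortex. The summed level of the 17 fibroblast genes tested, listed because stem cells are often grown on fibroblast feeders, was 845 and 613 CPM in stem cells. Fn1 alone gave 797 and 575 of this. Thy1 was at 24.3 and 27.2 CPM in stem cells and 13.5 and 18.7 in cortex, and was not called. Col1a1 was at 2.96 and 1.59 CPM in stem cells and Col1a2 at 0.929 and 0.366, and Dcn, Postn, Prrx1 and Lum had no count there.

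All 11 tested genes of the 2-cell-stage-like list, a programme that comes on in a small share of stem cells in culture, were called higher in stem cells. The fitted median difference was -10.19, beyond that of the pluripotency list, and -6.87 with members that had no cortex count set at their limit. Zscan4c (12.8 and 5.17 CPM, at least 190-fold higher), Zscan4d (8.93 and 3.34 CPM, at least 130-fold) and Zscan4f (16.4 and 7.53 CPM, at least 253-fold) had no count in cortex. These Zscan4 genes are near-identical copies in a cluster, so how counts divide among them is uncertain. The stem cell replicates differed, with a median of -1.11 for replicate 2 minus replicate 1 over the list. The timing genes around Lin28, the RNA-binding protein that blocks let-7 processing, were higher in stem cells in 8 of 11 cases and in cortex in none. Lin28a itself had 285 and 315 CPM in stem cells against 0.0568 and 0.306 (-10.73 ± 0.60), Trim71 241 and 177 against 0.482 and 0.17, and Igf2bp1 was 14.2-fold higher. Lin28b (21.5 and 43.4 against 3.72 and 4.59 CPM) and Hmga2 (18.8 and 16.9 against 5.39 and 1.6 CPM) were still counted in cortex.

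Germline genes act in meiosis and in the piRNA pathway and are normally silent in somatic tissue. Of 35 tested, 30 were called higher in stem cells and 3 in cortex, with a median of -5.61. Promoters of such genes are known for CpG-rich sequence with E-box (CACGTG) and E2F-type (TCCCGC) motifs, which the complex that silences them binds. The 4 sequences that follow are the 250 bases upstream of the RefSeq start (GRCm38.p6) of called germline genes. They come from the 5 such genes with a window that holds both motifs, and are shown so that the motifs can be seen in place. They are written 5′ to 3′ on the gene's strand, and capitals mark CACGTG and TCCCGC or its reverse complement.
Ddx4: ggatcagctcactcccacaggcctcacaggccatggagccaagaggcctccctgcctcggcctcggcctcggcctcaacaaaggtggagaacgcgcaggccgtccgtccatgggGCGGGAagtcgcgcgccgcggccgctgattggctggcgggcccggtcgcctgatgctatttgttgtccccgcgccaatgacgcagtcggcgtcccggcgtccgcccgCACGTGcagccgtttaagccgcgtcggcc
Mael: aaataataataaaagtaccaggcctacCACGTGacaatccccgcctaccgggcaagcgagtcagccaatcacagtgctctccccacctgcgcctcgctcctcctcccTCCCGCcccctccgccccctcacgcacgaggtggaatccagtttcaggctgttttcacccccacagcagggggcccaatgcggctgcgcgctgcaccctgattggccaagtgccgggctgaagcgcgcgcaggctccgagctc
Sycp3: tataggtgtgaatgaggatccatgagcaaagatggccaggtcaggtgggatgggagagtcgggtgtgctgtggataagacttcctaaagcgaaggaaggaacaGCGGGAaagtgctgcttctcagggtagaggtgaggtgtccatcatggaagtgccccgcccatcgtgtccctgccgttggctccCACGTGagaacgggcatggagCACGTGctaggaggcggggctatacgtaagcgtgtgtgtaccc
Hormad1: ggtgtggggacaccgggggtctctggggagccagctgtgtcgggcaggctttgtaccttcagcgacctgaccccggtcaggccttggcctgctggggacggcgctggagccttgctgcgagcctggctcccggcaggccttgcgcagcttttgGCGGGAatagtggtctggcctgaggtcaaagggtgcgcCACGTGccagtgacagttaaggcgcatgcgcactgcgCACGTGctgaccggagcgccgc
They lie at chr13:112652311-112652560 (Ddx4, minus strand), chr1:166238745-166238994 (Mael, minus strand), chr10:88459337-88459586 (Sycp3, plus strand) and chr3:95559429-95559678 (Hormad1, plus strand). Of the 33 list genes with a promoter in the RefSeq table, 12 (36.4%) held CACGTG and 14 (42.4%) TCCCGC on either strand in a 250-base window, and 5 held both. Over all 27025 genes of that table the shares were 6.86% and 18.8%, and 1.98% for both. Syce2, the list gene with both motifs that is not shown, was at 35.5 and 75.5 CPM in stem cells. In cortex it was at 13.3 and 13 CPM (4.22-fold higher in stem cells). A CACGTG match cannot also be a TCCCGC match. The shares describe letters in a window, and the list was chosen with earlier results known.

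The 4 genes shown were at low but clear levels in stem cells. Ddx4, an RNA helicase of germ cells, was at 25.2 and 37.6 CPM against 0.993 and 1.26 in cortex (-4.80 ± 0.50, adjusted p = 1.29e-05). Mael, a piRNA pathway factor, was at 14.7 and 11.4 against 0.0851 and 0.034 (-7.63 ± 0.95). The synaptonemal complex gene Sycp3 gave 10.1 and 15.9 against 0.227 and 0.613 (-4.96 ± 0.72). Hormad1, a meiotic chromosome axis gene, gave 3.89 and 13.1 CPM against 0.0284 and 0 and was the most variable of the 4 between stem cell libraries. The groups did not overlap for any of them, as for 83.1% of all genes tested. Dazl, whose window holds neither motif, was 32.3-fold higher in stem cells (10.5 and 10.4 CPM against 0.511 and 0.136). Stra8, the gene that starts meiosis, had 79.2 and 14.3 CPM in stem cells and no count in cortex (at least 978-fold). Rpl10l, a retrogene copy of a ribosomal protein gene, had 43.1 and 53.6 CPM against 0.0284 and 0, and Mov10l1 23.5 and 22.5 against 0.0284 and 0. The 3 members higher in cortex were Tdrkh (12 and 9.44 CPM against 64.9 and 57.5), Brdt (2.07-fold) and Spo11, which had 0 and 0.0407 CPM in stem cells and 0.312 and 0.306 in cortex. Without E17.5_WT replicate 1 or replicate 2, only 1 of these 3 calls was left, and without either stem cell library 2 were.

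Epithelial adhesion genes were called higher in stem cells for 21 of 26 and in cortex for 1, Cldn3 (3.77-fold), which was not called without mESC_WT replicate 2 or E17.5_WT replicate 2. E-cadherin (Cdh1), which holds stem cell colonies together, was at 371 and 366 CPM in stem cells and 2.27 and 8.58 in cortex (-6.10 ± 0.94, adjusted p = 0.000212). Epcam was 106-fold higher (66.9 and 118 CPM against 0.823 and 0.919). Cldn4 had 19.4 and 33.7 CPM against 0 and 0.034. The epithelial splicing regulators Esrp1 (3.27 and 21.4 CPM against 0.0568 and 0.0681) and Esrp2 (13.8 and 13.1 against 0.0568 and 0.272) were also higher in stem cells, and Esrp1 was far lower in stem cell replicate 1 than in replicate 2.

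In the LIF and Stat3 list, 9 of 13 were higher in stem cells: the receptor gene Lifr (60.2 and 52.7 CPM against 13.5 and 24.5), Stat3 (148 and 111 against 35 and 32.9) and the feedback inhibitor Socs3 (163 and 141 against 10.6 and 9.02, -3.95 ± 0.24). The kinases Jak1 (2.24-fold) and Jak2 (15-fold) and the related receptor Osmr were higher in cortex. The counts of the FGF, Wnt and Nodal lists that follow stand beside 35.3% higher in cortex and 32.7% higher in stem cells over all genes tested. In the FGF and ERK list, 8 of 19 were higher in stem cells and 6 in cortex. The ERK feedback genes Spry4 (262 and 140 CPM against 5.73 and 8.71), Dusp6 (2.89-fold) and Etv4 (22.4-fold) were higher in stem cells, whereas Fgf13, an intracellular FGF relative of neurons (72.7-fold), Fgf9 (53.4-fold) and the receptor Fgfr2 (25.6-fold) were higher in cortex. Fgfr1 stood at 124 and 69.6 CPM against 145 and 155 and was not called, except that it was higher in cortex without mESC_WT replicate 1 (1.12). Among 25 Wnt genes, 11 were called higher in cortex and 8 in stem cells. The ligands Wnt7b (0.752 and 0.407 CPM against 204 and 180, 8.37 ± 0.34) and Wnt7a (94.7-fold) and the receptor Fzd1 (136-fold) were higher in cortex, while the receptor Fzd5 (58.3-fold) and the ligand inhibitor Notum (11-fold) were higher in stem cells. The pathway's response gene Axin2 was 2.22-fold higher in cortex. In the Nodal, BMP and Id list, 10 of 23 were higher in stem cells and 9 in cortex. Bmp4 (62.5 and 61.4 CPM against 2.33 and 4.49) and Id1 (6.37-fold) were higher in stem cells, and Id4 (1.5 and 2.44 against 125 and 198) and Id2 (12.1-fold) in cortex.

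Notch signalling, which keeps radial glia from differentiating, was higher in cortex in 14 of 18 genes (median 2.1). The ligand gene Dll1 was at 2.12 and 1.34 CPM in stem cells and 35.1 and 29.6 in cortex (4.22 ± 0.34), the receptor Notch1 at 34.2 and 26.7 against 143 and 117 (2.10 ± 0.24), and the target Hes5 at 0.133 and 0.0814 against 23.9 and 23.3 (7.74 ± 0.45). The endothelial ligand Dll4 had no stem cell count. Against the rest, the target Hes1 (35.4 and 35 CPM against 12.3 and 12.5) and the nuclear effector Rbpj (354 and 270 against 140 and 98.8) were higher in stem cells. Of 24 radial glia genes 20 were higher in cortex and 2, Sox2 and Hes1, in stem cells. Fabp7, the brain lipid-binding protein of radial glia, went from no count to 364 and 342 CPM (at least 5570-fold), Pax6 was 24.8-fold higher (0.796 and 2.52 CPM against 51.1 and 31.2) and the glutamate transporter Slc1a3 7.58-fold. Intermediate progenitor genes were higher in cortex in 13 of 15 cases and in stem cells in none. The proneural factor Neurog2 had no count in stem cells and 115 and 71.3 CPM in cortex (at least 1498-fold), Insm1 went from 0.354 and 0.325 to 173 and 188 (9.04 ± 0.44), and Eomes from 11.9 and 7.61 to 150 and 89.3. Neurog1 (3.38 and 0.578 CPM in cortex) lost its call without mESC_WT replicate 2 (3.45) or E17.5_WT replicate 1 (2.69).

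The patterning factors that define the forebrain were all higher in cortex, 22 of 22, with a median log2 difference of 9.06 (8.84 with members at their limits). This was the largest list median in favour of cortex among the groups in the plot of gene groups. Emx2 had no count in stem cells against 32.2 and 22.6 CPM in cortex, Emx1 0.0442 and 0.122 against 50.3 and 33.9, Lhx2 0.221 and 0.285 against 221 and 240, and Bcl11a 0.619 and 2.6 against 381 and 314. The groups did not overlap for any of the 22, as for 83.1% of all genes tested. Nr2f2 (65 and 137 CPM in cortex) and Nr2f1 (204 and 376 CPM), transcription factors graded along the cortical axes, were higher in cortex replicate 2 than in replicate 1.

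All 28 immature neuron genes were called higher in cortex (median 5.58), and their summed level was 2345 and 2564 CPM in stem cells against 38554 and 38893 in cortex. Dcx, doublecortin, the microtubule protein of migrating neurons (ENSMUSG00000031285.14, GRCm38 chromosome X, 143855842 to 143933311), had no count in stem cells and 1808 and 1550 CPM in cortex. At least 26605-fold higher, it had the largest fitted difference in favour of cortex of any gene named under the size rule. The neuronal differentiation factors Neurod6 (534 and 340 CPM, at least 7015-fold) and Neurod2 (471 and 403, at least 6920-fold) and the stathmin Stmn4 (221 and 175, at least 3144-fold) also had no stem cell count. Tbr1, a T-box factor of young excitatory neurons, had 0.0442 and 0 CPM against 342 and 222. Not every neuronal gene was off in stem cells. Stmn2, widely used as a neuron marker, was at 371 and 466 CPM in stem cells and 708 and 832 in cortex, a difference of only 0.88 ± 0.22 (adjusted p = 0.00437). Tubb3, the target of the common neuronal antibody TuJ1, was at 300 and 182 CPM against 1828 and 1878 (2.95 ± 0.31). St8sia2, a polysialyltransferase, had 244 and 276 CPM in cortex and none in stem cells (at least 4065-fold).

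Upper-layer genes were higher in cortex in 16 of 17 cases, with the homeobox gene Cux2 at 7.3 and 2.48 CPM against 98.3 and 102 (4.36 ± 0.44). Deep-layer genes were higher in 14 of 17. Bcl11b, also known as Ctip2, was at 5.17 and 1.46 CPM against 446 and 312, and Fezf2 at 0.0884 and 0.0814 against 106 and 74.2. Diaph3, an actin regulator on the same list, was 7.26-fold higher in stem cells. All 11 Cajal-Retzius genes were called higher in cortex, with Reln at 0.0884 and 0.447 CPM against 326 and 319 (10.18 ± 0.53). Of 23 interneuron genes 22 were higher in cortex: the GABA-synthesising enzyme genes Gad1 (60.7-fold) and Gad2 (325-fold), the ventral forebrain factors Dlx1 (0.221 and 0.122 CPM against 261 and 197) and Lhx6 (23.5-fold), and the neuropeptide gene Sst, which had no stem cell count. Adarb2 went the other way, with 19.9 and 54.6 CPM in stem cells 16 and 16.6 in cortex (-1.19 ± 0.38), a call left only in the fit without mESC_WT replicate 1 when 1 library was left out.

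Synaptic and excitability genes were nearly all higher in cortex. Synaptic vesicle genes were higher in cortex in 27 of 29 cases, all 31 postsynaptic and glutamate receptor genes were, as were 17 of 18 GABA-A and glycine receptor genes and 29 of 30 voltage-gated channel genes, with medians of 4.69, 5.34, 7.57 and 5.71. The calcium sensor gene Syt1 rose from 0.354 and 0.285 CPM to 158 and 169 (8.98 ± 0.36) and the SNARE gene Snap25 from 0.221 and 0.325 to 118 and 99 (8.60 ± 0.38). Sypl, a synaptophysin relative found in many tissues, was higher in stem cells (1.63-fold), but not called without E17.5_WT replicate 2. Of the glutamate receptor subunits, Grin2b was at 0.265 and 0.447 CPM against 273 and 260 (9.52 ± 0.35), Gria2 at 0 and 0.0407 against 174 and 224, and Gria1 without a count against 123 and 147 (at least 2108-fold). The obligatory NMDA receptor subunit Grin1 differed less, at 5 and 6.67 CPM against 37.6 and 65.1 (3.14 ± 0.35). Glra2, the fetal glycine receptor subunit (69.5 and 67.8 CPM), and Kcnd3, a potassium channel (59.3 and 56.9 CPM), had no stem cell count. The sodium channel Scn3a, typical of fetal brain, was 21.1-fold higher and Scn2a 36-fold. Axon guidance genes were higher in cortex for 34 of 35 tested (median 6.14). The netrin receptor gene Dcc had no count in stem cells and 187 and 106 CPM in cortex, and Robo2 went from 0 and 0.203 to 309 and 190, whereas its relative Robo1 was already at 41.3 and 27.9 CPM in stem cells and 7.27-fold higher in cortex.

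**Figure D2:**
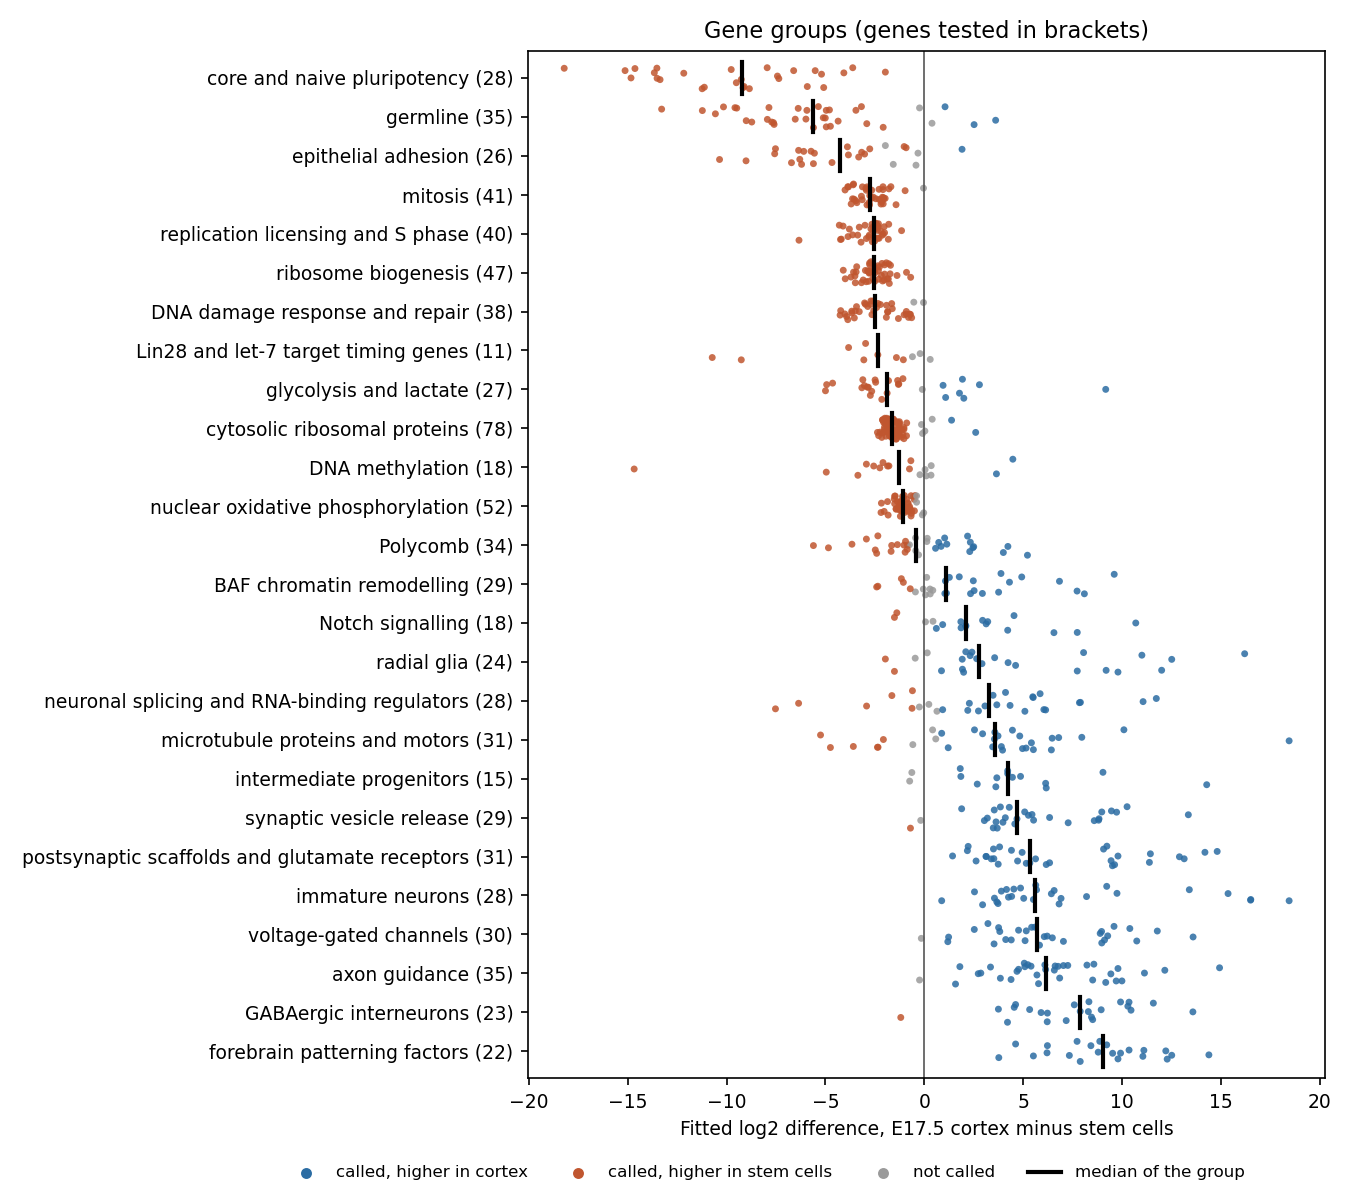
Fitted log2 difference, cortex minus stem cells, of each tested gene (points) in 26 gene groups, ordered by the group's median (black bar), with blue points called higher in cortex, orange points called higher in stem cells and grey points not called. Of these 26 groups, which leave out the 2-cell-stage-like list, pluripotency genes have the lowest median (-9.21) and forebrain patterning factors the highest (9.06). The division, repair and ribosome groups lie below 0, except for 4 of the 78 cytosolic ribosomal protein genes.

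Within the tubulin and intermediate filament families, members differed in direction. Of 31 microtubule genes, 22 were called higher in cortex and 6 in stem cells. Tuba1a, the tubulin of growing axons (chromosome 15, 98949837 to 98953703), had the largest difference in CPM in favour of cortex among called genes, at 696 and 797 CPM in stem cells and 8453 and 9070 in cortex (3.55 ± 0.25), and Tubb2b followed at 258 and 367 against 4396 and 3868. The microtubule-associated genes Map2 (252-fold), Mapt, which encodes tau (86.4-fold), Map1b (45.9-fold) and Dclk1 (1106-fold) rose with them. Dpysl3, which encodes a collapsin response protein of growth cones, was at 18.1 and 29 CPM against 2086 and 2391, and Stmn1 was 5.83-fold higher. Going the other way were Tuba1b (2821 and 3762 CPM against 829 and 733), Tuba1c (575 and 717 against 28.8 and 19) and Tuba4a (187 and 506 against 9.56 and 8.61), with Tubb4b and Tubb6 completing the tubulins and Map7 the list. Per kilobase of exon, Tuba1b was the highest of these alpha tubulins in stem cells (1755 CPM per kb against 414 for Tuba1a) and Tuba1a in cortex (4859 against 417 for Tuba1b). Tuba1b, Tubb4b and Tubb6 were singled out after their values were seen. The tubulin genes are close relatives in sequence, so the division of counts among them rests on the authors' estimate. Of 16 intermediate filament genes, 7 were called higher in cortex (the neurofilament gene Nefm 34.9-fold, Ina 17.8-fold, the progenitor filament Nes 18.9-fold) and 8 in stem cells (Nefh 22.9-fold, Prph 29.6-fold, Krt8 9.97-fold). These 2 counts stand beside 35.3% higher in cortex and 32.7% higher in stem cells over all genes tested. Vim was shared, at 233 and 232 CPM against 435 and 415.

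RNA splicing and RNA-binding regulators were mostly higher in cortex. Of 28 tested, 19 were higher in cortex and 6 in stem cells. The polypyrimidine tract binding protein Ptbp1, which represses neuronal exons, was at 957 and 928 CPM in stem cells and 141 and 108 in cortex (-2.92 ± 0.23, adjusted p = 1.44e-06), and its neural relative Ptbp2 at 20 and 36.1 against 248 and 225 (3.07 ± 0.29). Per kilobase of exon the 2 genes were close in cortex, at 26.3 and 25.8 CPM per kb, from 199 and 3.06 in stem cells. Celf2 (231-fold), Celf3 (2222-fold), the microexon regulator Srrm4 (239-fold), Rbfox3, which encodes the NeuN antigen (65.9-fold), and Nova1 (20.4-fold) were higher in cortex.

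Among chromatin genes, the BAF remodelling complex showed 17 of 29 subunit genes higher in cortex and 5 in stem cells. Actl6b, the neuronal actin-like subunit, was at 0.221 and 0.0407 CPM against 111 and 95.2 (9.61 ± 0.40), while Actl6a, its progenitor counterpart, was at 185 and 237 against 51.3 and 31.2 (-2.35 ± 0.25). Ss18l1 (19.8-fold) and Ss18 (2.24-fold the other way) formed a similar pair, and Dpf1 (5.57-fold) and Dpf3 (30.4-fold) were higher in cortex with Dpf2 1.64-fold and Brd7 2.08-fold higher in stem cells. The ATPase gene Smarca2 was at 0.619 and 0.936 CPM against 227 and 204 (8.10 ± 0.31). Of 34 Polycomb genes, 13 were higher in cortex and 15 in stem cells, beside 35.3% and 32.7% of all genes tested. Cbx7, the main chromodomain subunit of stem cells, was at 208 and 179 CPM against 3.29 and 4.63 (-5.61 ± 0.24), and Epop 28.9-fold higher in stem cells. Bmi1 (2.56 and 3.46 against 113 and 111) and Cbx8 (18.9-fold) were higher in cortex. Ezh2, the methyltransferase subunit, differed little (179 and 191 against 125 and 80.2). It lost its call without either stem cell library or without E17.5_WT replicate 2 (-0.89 to -0.55). DNA methylation genes were higher in stem cells for 11 of 18 and in cortex for 2. Dnmt3l, the catalytically inactive partner of the de novo enzymes, had 101 and 144 CPM in stem cells and no cortex count (at least 2654-fold). The demethylation enzyme Tet1 was 4.74-fold higher in stem cells, and its relative Tet3 was 22.4-fold higher in cortex. Dnmt3a, at 279 and 104 CPM against 175 and 153, was not called (adjusted p = 0.622), and without mESC_WT replicate 2 it was called higher in stem cells (-0.77).

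**Figure D3:**
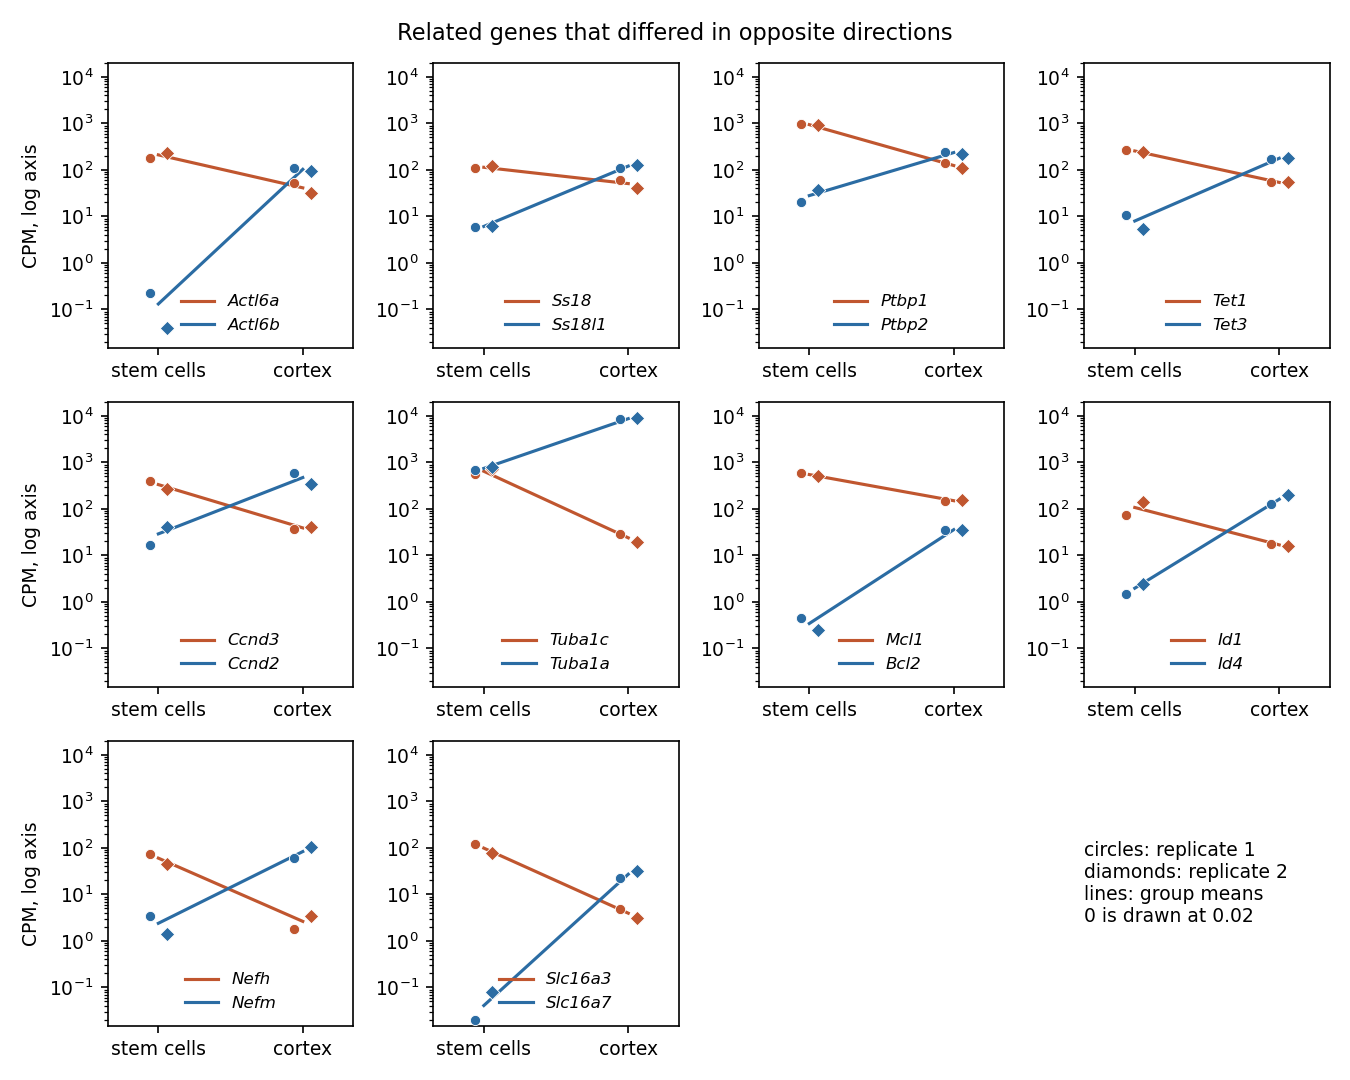
Level in CPM (log axis) of 10 pairs of related genes in stem cells and cortex, circles for replicate 1, diamonds for replicate 2 and lines between group means, with orange for the gene higher in stem cells and blue for the gene higher in cortex. The pairs were chosen after their values were seen. Actl6b goes from under 1 CPM to above Actl6a, and Ptbp2 from far below Ptbp1 to above it.

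All 40 replication licensing and S phase genes were called higher in stem cells (median -2.57), as were 40 of 41 mitosis genes (median -2.76), 36 of 38 DNA repair genes (median -2.48) and 16 of 22 condensin and cohesin genes. The replicative helicase gene Mcm5 was at 931 and 917 CPM against 58.6 and 35.4 (-4.30 ± 0.28), Pcna at 469 and 795 against 141 and 89.7, and Orc1, of the origin recognition complex, at 113 and 146 against 1.84 and 1.33 (-6.34 ± 0.34). Ccnb1, the mitotic cyclin, was 11-fold and topoisomerase gene Top2a 4.84-fold higher in stem cells. The mitosis gene that was not called was Mki67, which encodes the proliferation antigen Ki-67, at 123 and 160 CPM in stem cells and 177 and 97.8 in cortex, with overlapping groups (-0.04 ± 0.32, adjusted p = 0.924). The cortex replicates differed here: summed mitosis genes were 1826 and 982 CPM and S phase genes 1672 and 1025, against 7161 and 8845 and 9268 and 10395 in stem cells. With E17.5_WT replicate 1 left out, 40 of 41 mitosis genes were called, and with replicate 2 left out 38. The repair genes Brca1 (7.88-fold), Fancd2 (14.7-fold) and Msh6 (850 and 821 CPM against 59.6 and 43.3) followed the same direction. Fewer genes of the repair list were called in each fit with a library left out, fewest without E17.5_WT replicate 2. The G1 regulators differed by member, 18 of 36 higher in stem cells and 11 in cortex, beside 32.7% and 35.3% of all genes tested. Ccne1 was at 240 and 288 CPM against 8.71 and 4.76 (-5.29 ± 0.30) and Ccnd3 at 397 and 271 against 36.8 and 41.4, while Ccnd2, the D cyclin of cortical progenitors, was at 16.7 and 41.5 against 601 and 346 (4.02 ± 0.48). The inhibitor Cdkn2c was 39.8-fold higher in cortex. Cdkn2a was at 16.7 and 13.3 CPM against 0.0568 and 0.136.

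Of 26 primary microcephaly genes, whose loss reduces brain size, 20 were called higher in stem cells and 1 in cortex, and without E17.5_WT replicate 2 the count in stem cells was 15. Mcph1 (ENSMUSG00000039842.15, chromosome 8, 18595131 to 18803189), the gene altered elsewhere in the series, was at 84.9 and 79.7 CPM in stem cells and 12.1 and 9.7 in cortex (-2.92 ± 0.21, adjusted p = 9.76e-07). The spindle pole genes Aspm (99.3 and 157 CPM against 46.6 and 27.6) and Wdr62 (5.56-fold) and the condensin genes Smc2 (6.13-fold) and Ncaph (4.25-fold) had the same direction, with smaller differences for Ncaph2 (1.73-fold). Cdk5rap2 was at 56.3 and 50.4 CPM against 85.8 and 56.8 and not called (adjusted p = 0.176). The lipid transporter Mfsd2a of brain vessels was 11.1-fold higher in cortex. Trp53 was 6.24-fold higher in stem cells (541 and 306 CPM against 78.8 and 56.9), and 17 of 24 genes of the p53 list were called in that direction, among them Ccng1 (8.52-fold), Sesn2 (20-fold) and Pmaip1 (64.5-fold). Cdkn1a lost its call in 3 of the 4 fits with a library left out (-1.72 to -1.55).

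The protein synthesis machinery was higher in stem cells. All 47 ribosome biogenesis genes were called (median -2.55): nucleolin, Ncl, at 4792 and 4277 CPM against 455 and 353 (-3.49 ± 0.23), Npm1 10.7-fold and Utp4 17.1-fold higher. Of 78 cytosolic ribosomal protein genes, 72 were higher in stem cells (median -1.61), and they took 7.08% and 7.72% of counts in stem cells and 3.24% and 2.85% in cortex. The elongation factor gene Eef1a1 had the largest difference in CPM in favour of stem cells among called genes (11203 and 12899 against 6438 and 5584), followed by the chaperone genes Hsp90aa1 (4651 and 8664 against 851 and 781) and Hsp90ab1 (3.46-fold). The 2 ribosomal protein genes called higher in cortex were Rps13 (24.2 and 23.8 CPM against 207 and 83.3) and Rps3a1 (199 and 189 against 558 and 452). For both genes, a processed pseudogene, an intronless copy of the messenger RNA inserted elsewhere in the genome, moved the other way. Rps13-ps1 on chromosome 8 was at 651 and 650 CPM against 0 and 0.0681, and Rps3a2 on chromosome 14 at 1017 and 1702 against 0.0284 and 0.034. Rpl3-ps1, on the X chromosome, had the largest fitted difference of any gene named under the size rule (1760 and 2486 CPM and no cortex count, at least 46062-fold), while its parent Rpl3 was at 508 and 376 against 614 and 554 and was not called (0.40), although without mESC_WT replicate 1 it was called higher in cortex (0.65). Summed over parent and named copies, Rps13 gave 675 and 673 CPM against 260 and 209, Rps3a 1215 and 1892 against 558 and 453, and Rpl3 2269 and 2862 against 614 and 554. The sums were higher in stem cells for these 3, and also for Rpl34 (628 and 927 against 287 and 225) and Rpl15 (1085 and 961 against 616 and 466). The groups overlapped for Rpl29 with its copy (382 and 365 CPM against 412 and 348) and for Rps7, summed with no copy (437 and 911 against 613 and 607). These copies and sums were chosen after their values were seen. The opposite case was Rpl15-ps3 (no count against 162 and 239 CPM, at least 3098-fold) and Rps13-ps2 (0 and 0 against 53.3 and 126). Salmon shares reads that fit several copies, so the level of each copy is uncertain. Of 413 processed pseudogenes tested, 49.6% were called higher in stem cells and 10.7% in cortex (median -1.91).

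Of 27 glycolysis and lactate genes, 19 were called higher in stem cells and 7 in cortex. Hexokinase 2, Hk2, was at 375 and 280 CPM against 10.8 and 9.7 (-5.00 ± 0.26), the glucose transporter Slc2a3 at 1535 and 1001 against 38.5 and 44, and Ldha 7.09-fold, Pkm 6.31-fold and Gapdh 4.43-fold higher. The lactate exporter Slc16a3 was 25.1-fold higher in stem cells, and its relative Slc16a7, a high-affinity carrier of neurons, had 0 and 0.0814 CPM against 22.1 and 32.3. The neuronal enolase Eno2 was 6.92-fold higher in cortex, and Ldhb was not called (171 and 124 against 159 and 116, adjusted p = 0.703). Nuclear genes of oxidative phosphorylation were higher in stem cells in 47 of 52 cases (median -1.1), but only 12 past a 2-fold change tested as such. Fewer were called in each fit with a library left out, fewest without E17.5_WT replicate 2. Cox4i1 was at 597 and 567 CPM against 230 and 190. Mitochondrially encoded genes were higher in stem cells in 4 of 15. Without mESC_WT replicate 2 the differences shrank from -1.36 to -0.1 (mt-Atp6), -1.14 to -0.28 (mt-Co3), -1.28 to -0.26 (mt-Nd1) and -1.49 to -0.81 (mt-Atp8). In that library mt-Co1, itself not called, stood at 20741 CPM against 4543 in replicate 1 and 4294 and 6741 in cortex. Without that library none of the 15 was higher in stem cells and 2 were higher in cortex, and without mESC_WT replicate 1 there were 14. The other fits gave 1 without E17.5_WT replicate 1 and 3 without replicate 2. Threonine dehydrogenase, Tdh, on which mouse stem cells depend for one-carbon units, was at 684 and 909 CPM in stem cells and 0.0568 and 0.102 in cortex (-13.24 ± 0.61). In all, 18 of 26 one-carbon, serine and threonine genes were higher in stem cells, including Shmt1 (22.4-fold) and Mthfd2 (11-fold). The cystine transporter Slc7a11 was 24.5-fold higher in cortex.

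Imprinted genes, expressed from only the maternal or the paternal copy, were higher in cortex in 32 of 51 cases and in stem cells in 11. H19 was at 0.531 and 0 CPM in stem cells and 154 and 222 in cortex (9.49 ± 0.80), and its neighbour Igf2 at 2.25 and 1.99 against 239 and 335 (7.07 ± 0.81). Meg3, at 0.133 and 0.895 against 125 and 203, and Mirg, without a stem cell count, come from the same cluster. Peg3 was 6.33-fold higher. Against this direction were Phlda2 (35.4 and 62.8 CPM against 0 and 0.102), Slc38a4 (64.4-fold) and Ddc (20.1-fold). Bulk counts do not show which parental copy was read.

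Markers of the other cell types that a dissected cortex holds were measured in the same libraries. Red blood cell genes summed to 1831 and 1784 CPM in cortex and 5.26 and 3.54 in stem cells: the adult beta globin Hbb-bs had 722 and 762 CPM against no count (at least 11648-fold), and Hbb-bt at least 3060-fold. Microglia genes were called higher in cortex in 13 of 16 cases, at low levels (Csf1r 19.4 and 18.8 CPM, C1qa 7.32 and 7.15), and 3 were higher in stem cells, among them Laptm5 (3.75-fold) and Itgam. Endothelial genes were higher in 16 of 19 (Cldn5 66.6-fold, Kdr 80.4-fold), although Pecam1 was higher in stem cells (58.2 and 43.7 CPM against 32 and 23.1), a call lost without E17.5_WT replicate 2 (-0.65). Meningeal fibroblast genes were higher in 15 of 16 (Col3a1 135 and 126 CPM, Dcn 26.2 and 30.6). Astrocyte lineage genes were higher in 17 of 18, and 12 past a 2-fold change tested as such. The cortex replicates differed over this list, with a median of 0.66 for replicate 2 minus replicate 1. Without E17.5_WT replicate 2 the log2 difference of Gfap fell from 2.14 to 0.33. Slc1a2 was at 90.1 and 118 CPM, Sparcl1 at 134 and 151 and Aqp4 at only 1.39 and 3.74. Of 17 oligodendrocyte lineage genes 15 were higher, with Olig1 at 19.9 and 71.7. Markers of neighbouring regions were present too. Of 13 choroid plexus genes, 7 were called higher in cortex and 6 were not called, among them Slc4a5 (4.2 and 5.78 CPM against 3.72 and 5.27). The choroid plexus transthyretin gene Ttr had 640 and 865 CPM and no stem cell count, with a wide error (17.30 ± 4.83, adjusted p = 0.0101), and was not called without either stem cell library (17.33 and 17.32). Striatal genes were all called higher (15 of 15), with Drd1 at 9.93 and 6.53 CPM. Thalamic genes summed to 350 and 761 CPM: Tcf7l2 was at 7.58 and 138 CPM and Zic4 at 15 and 80.2, so that the cortex libraries differed from each other more than replicate 1 differed from stem cells for Tcf7l2 (5.88 and 5.49 CPM). Its call was lost without E17.5_WT replicate 2 (0.44) and without either stem cell library. The part of these regions and cell types in the counts above was not tested.

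Above 50 kb, the share of genes higher in cortex grew with gene span. Among coding genes spanning over 200 kb, 77.7% of 962 were called higher in cortex and 8.84% in stem cells, with a median log2 difference of 3.72. From 100 to 200 kb the shares were 57.9% and 20.1% (median 1.32), and from 50 to 100 kb 41.4% and 30.6%. Below 50 kb the share higher in cortex was flat, from 28.2% to 30.3%, and every bin had more genes called higher in stem cells than in cortex, with medians from -0.31 to -0.25. Antisense RNAs (median 0.90) and long noncoding RNAs from bidirectional promoters (48.4% called higher in cortex and 5.49% in stem cells of 91, median 1.74) had medians on the cortex side as well. Whether the counting used strand is not given in the sources used here, so reads of an antisense gene and its partner may not have been told apart.

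**Figure D4:**
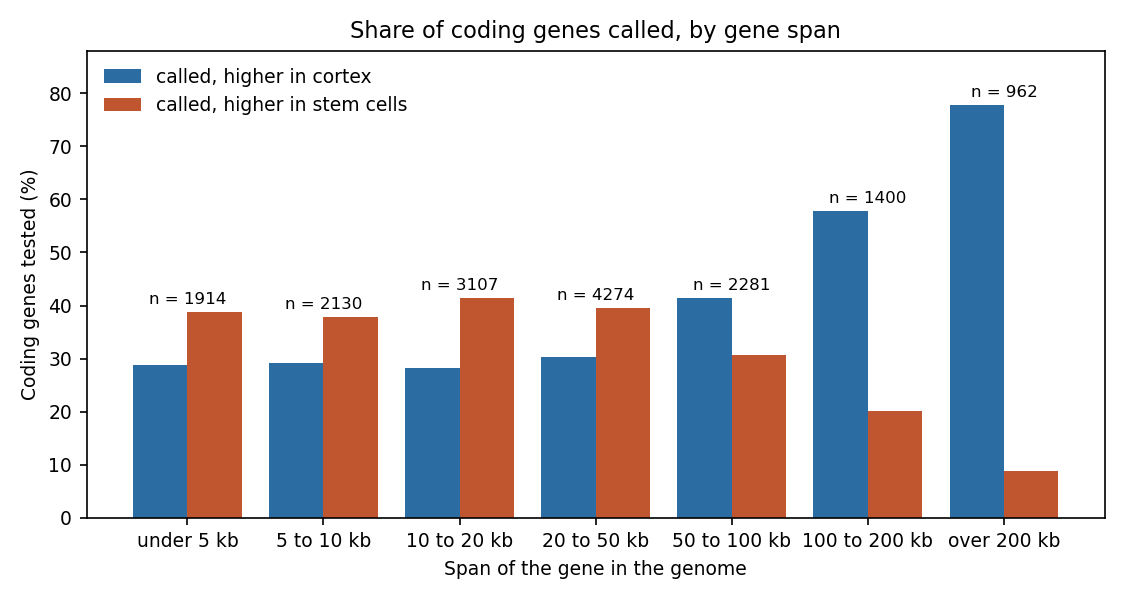
Share of coding genes (%) called higher in cortex (blue bars) and higher in stem cells (orange bars), by the distance the gene spans in the genome, with the number of genes tested above each pair. The blue share is flat up to 50 kb (28.2% to 30.3%) and then climbs to 77.7% over 200 kb, and the orange share peaks at 41.4% from 10 to 20 kb and drops to 8.84%.

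By chromosome, 14514 coding genes with at least 1 CPM in either group had a median difference of -0.03. Among the autosomes and X, chromosome 8 lay lowest, at -0.55 over 762 genes, with 47.9% called higher in stem cells and 28.7% in cortex against 37.1% and 37.7% of all these genes. The value was -0.61 against stem cell replicate 1 and -0.48 against replicate 2, while the cortex replicates differed by -0.05 there and the stem cell replicates by -0.12. Chromosome 1 was at -0.31, and 18 (0.43) and X (0.39) lay highest of these. Chromosome 14 was at -0.23, but at -0.10 against stem cell replicate 1 and -0.34 against replicate 2. The few genes of the mitochondrial genome (13, median -0.89) and of Y (6, median 1.03) lay outside this range. Along chromosome 8 the median was -0.51 from 0 to 30 Mb, -0.03 from 30 to 60 Mb, -0.72 from 60 to 90 Mb and -0.58 beyond. Chromosome 14 was uneven, with -0.61 from 30 to 60 Mb and 0.78 beyond 90 Mb. With coding genes under 50 kb only, the median of all was -0.35, chromosomes 1 (-0.78) and 8 (-0.77) were the lowest, and chromosome 18 fell to -0.25. Mcph1 and Zfp42 lie on chromosome 8. The genes Ddx3y (5.39 and 7.12 CPM against 41 and 42.4), Kdm5d (11.4-fold) and Uty (4.06-fold) of the Y chromosome were present in both groups and higher in cortex, whereas Eif2s3y was level (17.2 and 32.9 against 26.6 and 25.2). Xist was at 0.354 and 1.18 CPM in stem cells and 0.142 and 0.851 in cortex.

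**Figure D5:**
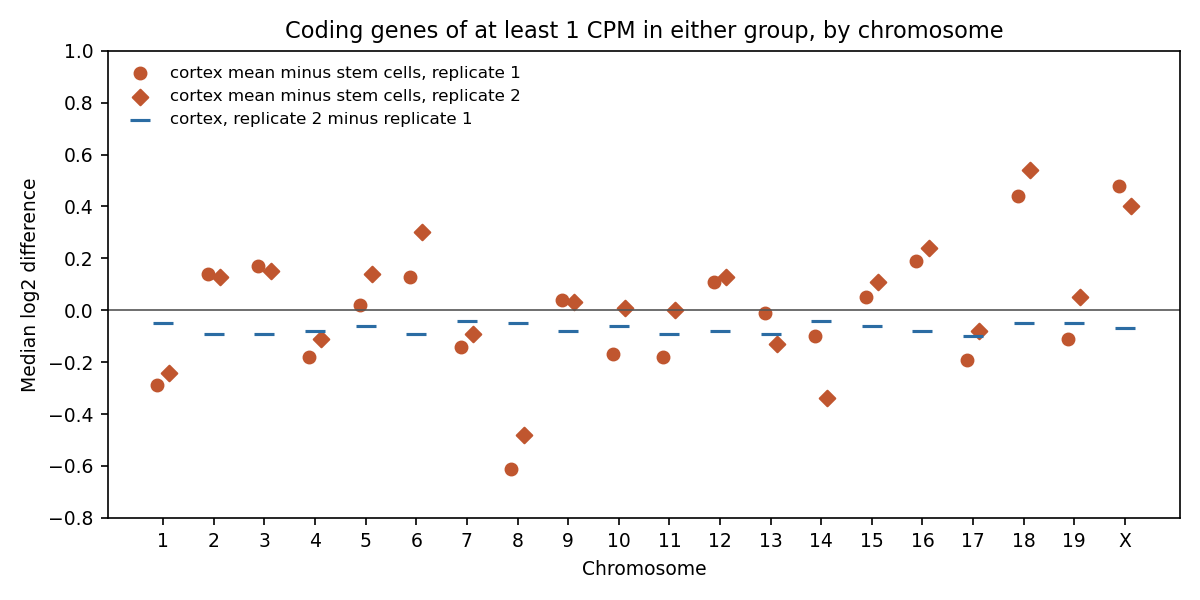
Median log2 difference of coding genes with at least 1 CPM in either group, by chromosome: the mean of the cortex libraries minus stem cells replicate 1 (orange circles) or replicate 2 (orange diamonds), and cortex replicate 2 minus replicate 1 (blue dashes). Of the chromosomes drawn, 8 is lowest with either stem cell library (-0.61 and -0.48), and the blue dashes lie close to 0 on every chromosome (-0.05 on chromosome 8).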

How the data were processed

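Bulk RNA-seq of 10 wild-type libraries entered the fit, of which the mESC_WT and E17.5_WT libraries (2 each) were compared. The table deposited for the series gives an estimated count for each gene and library, not normalized, made by the authors with Salmon 1.4.0 per the submitters' processing notes. These notes also name FastQC, Trimmomatic 0.39 and the builds GRCm38.p6 and mm10. Salmon divides reads among similar transcripts by estimate, so related genes and pseudogene copies share uncertainty. Counts were used as deposited, without a rounding step. Of 54281 gene IDs, 54107 matched GENCODE M21 (GRCm38), which gave symbols, classes and positions.

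Genes were kept by filterByExpr (minimum count 10, total 15), scaled by TMM and fitted with edgeR 4.0.16 (quasi-likelihood, R 4.3.3, limma 3.58.1), 1 mean per group, contrast cortex minus stem cells, with Benjamini-Hochberg adjustment over 19466 genes and a call at 0.05. A 2-fold change was tested with glmTreat. The other wild-type groups were fitted because 2 libraries per group leave few residual degrees of freedom (5 in all). An exact permutation of 2 against 2 libraries cannot give a two-sided p below 0.333. The script was tested on simulated data.

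The comparison and the 64 gene lists (1402 listed genes tested) were chosen with earlier results of these data known, so lists are described by counts and medians and not tested. Named genes are the 12 largest called differences in each direction without overlap between groups and with at least 10 CPM in the higher group (genes with only a clone name were passed over), the 6 largest differences in CPM in each direction, the key members of each list with up to 4 further called members of largest difference, members called against their list, and Mcph1. Genes outside this rule are named as examples, and some that fall under it are not reported here.

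Promoter sequences came from RefSeq (GRCm38.p6). A check of promoter CpG content is void, because 12605 of 16068 coding genes tested (78.4%) had a promoter in that table, under the 80% required. Replicate numbers were not used as pairs. Alternatives were other scalings, no filter, other sets of libraries, a replicate block, DESeq2 1.42.0 and leaving out each library.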

Additional observations from a re-analysis of the deposited data

How the results depend on the processing

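With all libraries, 6863 genes were called higher in cortex and 6367 in stem cells. RLE factors gave 6714 and 6548, upper-quartile factors 6759 and 6468, no filter 7079 and 6470, only the 4 libraries compared 6329 and 5772, all 18 libraries 7242 and 6403, and DESeq2 6678 and 6336. Leaving out 1 library gave 6144 to 6527 and 5189 to 5988. Calls shared with these fits had the same direction in each of them. Scaling by total count alone gave 7678 and 5323, so that 59.1% of calls were in favour of cortex against 51.9% with TMM, and the median of all genes moved from 0.06 to 0.36. Replicate numbers did not pair the libraries (correlation of same-numbered deviations 0.092), and with a replicate block 6766 and 6236 genes were called, sharing 97.5% of the calls.

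List medians near 0 changed sign. By total count, formative and primed epiblast genes went from -0.06 to 0.25, Nodal, BMP and Id genes from -0.14 to 0.15, and FGF and ERK genes from -0.15 to 0.12. With 1 library left out the epiblast median ran from -0.25 to 0.15 (0.05 without mESC_WT replicate 2, 0.15 without E17.5_WT replicate 1). The primitive streak median moved from -0.47 to 0.02 and 0.25 without the same libraries (range -1.89 to 0.25), and the Nodal, BMP and Id median to 0.21 (mESC_WT replicate 1) and 0.26 (E17.5_WT replicate 1, range -0.55 to 0.26). The FGF and ERK median ran from -0.58 to 0.36, the latter without mESC_WT replicate 1. Without mESC_WT replicate 2 the mitochondrially encoded median went from -0.80 to 0.09 (range -1.36 to 0.09) and mt-Cytb from -0.60 to 1.01 (edgeR adjusted p = 0.0404, range -1.33 to 1.01). The cause of these changes was not tested. The list counts and chromosome medians with a library left out, and those for genes under 50 kb, were chosen after seeing the data.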

Other observations

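Several gene groups outside the main description differed by member. Their counts, here and in the next paragraph, stand beside 35.3% higher in cortex and 32.7% higher in stem cells over all genes tested. Of 24 cholesterol synthesis genes, 10 were called higher in stem cells and 4 in cortex. Msmo1 was at 145 and 185 CPM in stem cells and 56.6 and 60.1 in cortex (-1.50 ± 0.19), while Sc5d (2.05-fold), Cyp51 (1.75-fold) and Hmgcs1 (1.6-fold) were higher in cortex. Of 24 genes of the Bcl2 family and caspases, 9 were higher in cortex and 7 in stem cells. The survival gene Bcl2 was at 0.442 and 0.244 CPM against 35.4 and 36.1 (6.70 ± 0.44), and its relative Mcl1 at 579 and 519 against 146 and 155 (-1.87 ± 0.19).

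Of 27 immediate-early and stress genes, 16 were higher in stem cells and 4 in cortex. The small heat shock gene Hspb1 was at 638 and 447 CPM against 1.16 and 2.55 (-8.20 ± 0.46), and Trib3 98.1-fold higher in stem cells, whereas Jun was at 8 and 9.03 CPM against 85.8 and 61.4. Of 32 histone genes, 12 were higher in stem cells and 6 in cortex. The variant H2afz was at 917 and 1309 CPM against 342 and 207, and the linker histone H1f0 at 86.6 and 85.3 against 473 and 237. The histone count in stem cells was 6 without mESC_WT replicate 2 and 5 without E17.5_WT replicate 2.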
